A study of Homo sapiens with 6 samples.

Results

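The genes described here are the cyclins and kinases that carry a cell through G1 phase, the kinase inhibitor p27 and the substrate RB1, 10 genes of the 30676 in the deposited table, chosen by name: CCND1, CCND2, CCND3, CDK4, CDK6, CCNE1, CCNE2, CDK2, CDKN1B and RB1. Each name matched 1 row. RNA was sequenced from cells labelled HCT116, an established human colorectal cancer line with the genotype given as WT. In 3 libraries the cells had received 10 µM GIA, a genistein isoflavonoid alkaloid, and in 3 libraries they had received DMSO, the vehicle, at 0.1%. All 6 were held at 1% oxygen for 24 hours, so hypoxia is common to both groups and its own effect was not measured. The labels leave unsaid whether DMSO was also present with GIA and whether replicates were separate cultures; p-values thus measure only the spread among these libraries, which may be technical.

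The passage from G1 into S phase is controlled by RB1, the retinoblastoma protein, which binds E2F transcription factors and holds back the genes of DNA synthesis. D-type cyclins, made in response to growth signals, pair with CDK4 or CDK6 and begin to phosphorylate RB1. E-type cyclins with CDK2 then complete that phosphorylation and free E2F. CDKN1B encodes p27, which binds cyclin E with CDK2 and blocks it, and which is itself bound by cyclin D complexes. In colorectal epithelium CCND1 is a known target of Wnt and growth factor signalling. Much of the control of p27 and RB1 acts on the protein, which RNA does not show.

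The libraries held 64804849 to 67835059 estimated counts with GIA and 55725249 to 63542466 with DMSO, in a table where 1 sequenced fragment may be worth about 4 counts. GIA library 2 was most often at an extreme. It had the highest or the lowest FPKM of the 6 for 53.5% of the 13721 genes tested. The share for any other library was 23.6% to 33.9%. By distance over all tested genes it was not alone. Its root mean square log2 difference from the other libraries was 0.377 to 0.433, and that of DMSO library 2 was 0.399 to 0.433. FPKM is the number of fragments per kilobase of transcript, scaled to library size. Of the fixed markers of colorectal epithelium, the keratins KRT8 (134 to 151 FPKM), KRT18 (219 to 274) and KRT19 (26.2 to 29.9) were abundant. The epithelial adhesion genes EPCAM (0.119 to 0.335) and CDH1 (0.0165 to 0.0490) and the microvillus gene VIL1 (0 to 0.0122) were at or near 0 in every library, and CLDN4 had 0.818 to 1.02; CDX2 was not analysed here. Fibroblast markers were measurable for DCN (11.2 to 16.0), PDGFRB (3.77 to 5.38) and COL1A1 (2.23 to 3.17) and near 0 for COL3A1, at up to 0.00766; COL1A2 and PDGFRA were not analysed here. The levels of EPCAM, CDH1 and VIL1 go against an epithelial identity and those of the keratins do not. The markers were thus mixed and do not settle what the cells are, so "HCT116" is used here only as the label. The 7 epithelial markers present summed to 452, 382 and 431 FPKM in GIA libraries 1 to 3 and to 435, 441 and 441 in DMSO libraries 1 to 3. The 4 fibroblast markers summed to 17.7, 24.6 and 19.6 FPKM with GIA and to 18.9, 17.6 and 18.9 with DMSO. GIA library 2 therefore had the lowest epithelial and the highest fibroblast sum, and the part of this in the results was not tested. The epithelial sums were carried by the keratins and the fibroblast sums mostly by DCN, so they follow few transcripts and do not measure cell content. Leukocyte markers (2 of 4 present) summed to at most 0.182 FPKM in any library and endothelial markers (3 of 3) to at most 0.123.

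None of the G1 genes passed the test between GIA and DMSO. CCND2 was essentially silent, and the other 9 genes were expressed well above the testing limit of a mean of 0.5 FPKM. Fold changes were positive for 4 of these 9 and negative for 5, and their median was -0.0044 on the log2 scale, against a median of 0.0001 over all 13721 genes tested. By the quasi-likelihood test of edgeR, with Benjamini-Hochberg adjustment over the 13721 genes, 0 of the 9 were called. With all 6 libraries the adjusted p by this test ran from 0.874 to 0.995. Without GIA library 2 the number called was also 0. The background was 0% of all genes called, with 4.63% at an unadjusted p under 0.05. The 1 member at that unadjusted level was CDKN1B. In RNA from a whole culture, fewer cells of a type and less RNA per cell cannot be told apart.

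**Figure D1:**
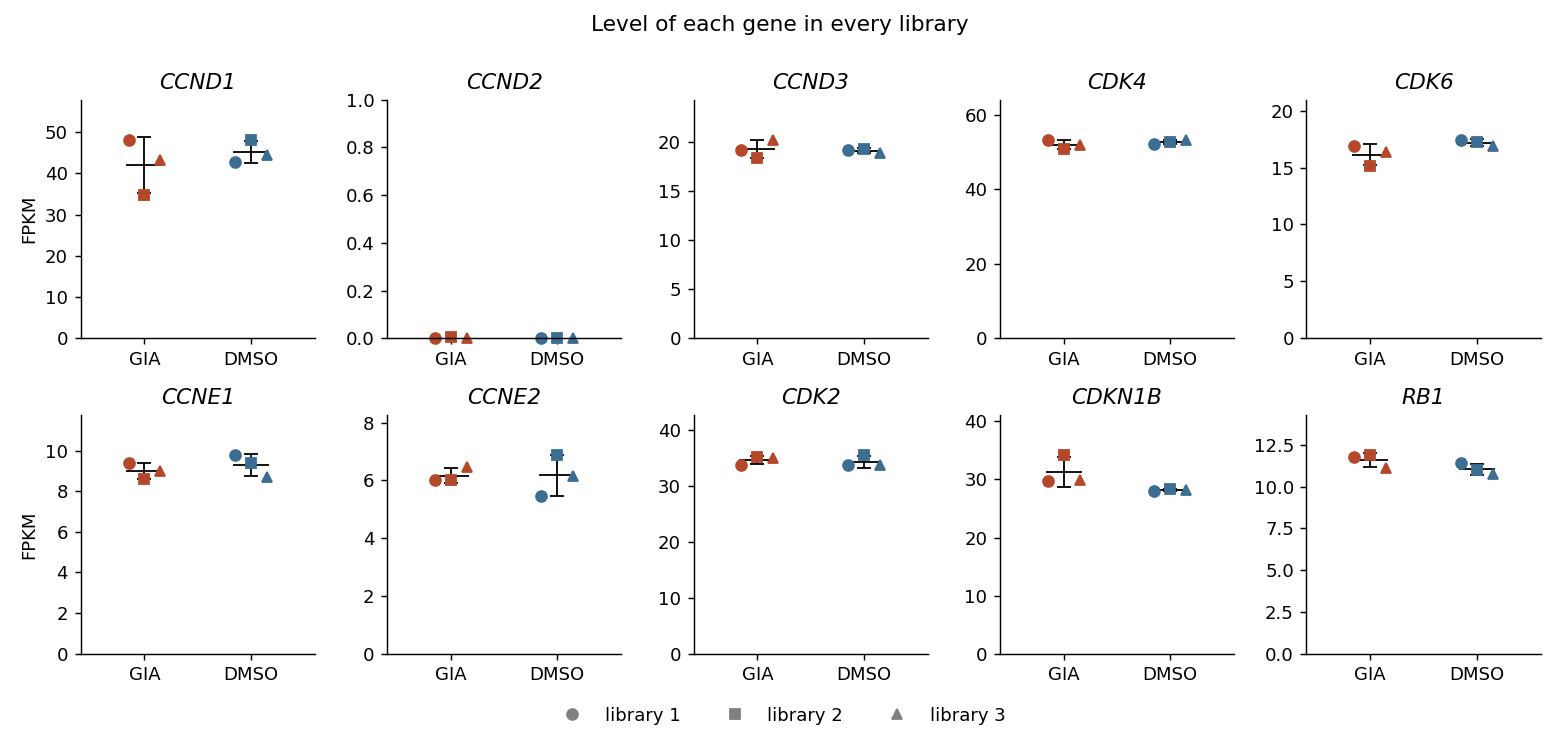
FPKM (y axis, from 0) of each of the 10 genes in the 3 GIA and the 3 DMSO libraries; symbols give the library number and black bars the mean and SD (n = 3 each; none is drawn for CCND2, which had no counts in 5 libraries). CDKN1B is the gene whose groups do not overlap, and CCND1 is lowest in GIA library 2.

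The D-type cyclins were represented by CCND1 and CCND3. CCND1, which encodes cyclin D1 (ENSG00000110092, chromosome 11, 69641156 to 69654474, plus strand, GRCh38), had 48.3, 34.7 and 43.2 FPKM in GIA libraries 1 to 3, against 42.8, 48.1 and 44.6 FPKM in DMSO libraries 1 to 3. The groups overlapped: the highest and the lowest of the 6 values were both GIA libraries. Its means were 42.1 ± 6.86 FPKM with GIA and 45.2 ± 2.70 FPKM with DMSO (SD, n = 3 each), and GIA over DMSO gave -0.10 in log2 (SE 0.11, 95% interval -0.34 to 0.13, adjusted p = 0.888 by edgeR). The direction rested on GIA library 2, since the log2 fold change was 0.02 without it and -0.22 without GIA library 1. The coefficient of variation of CCND1, its SD over its mean, was 16.3% among GIA libraries and 5.97% among DMSO libraries. For comparison, the median over the 7006 genes with a mean of at least 5 FPKM was 4.46% with GIA and 3.16% with DMSO, and 97.1% of those genes varied less than CCND1 among the GIA libraries.

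CCND3, which encodes cyclin D3 (ENSG00000112576, chromosome 6, 41934934 to 42050357, minus strand), had 19.2, 18.4 and 20.2 FPKM in the GIA libraries, against 19.2, 19.3 and 18.9 FPKM in the DMSO libraries. The 3 DMSO values lay inside the span of the GIA values. In log2 terms CCND3 differed by 0.0082 (SE 0.04, 95% interval -0.09 to 0.11, adjusted p = 0.982 by edgeR), which bounds a rise at 1.08-fold and a fall at 1.07-fold between these samples.

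CCND2, which encodes cyclin D2 (ENSG00000118971, chromosome 12, 4269771 to 4305350, plus strand), had 0, 4 and 0 estimated counts in the GIA libraries, against 0, 0 and 0 in the DMSO libraries. The 4 counts of GIA library 2 gave 0.00671 FPKM and may equal about 1 fragment. A count of 0 allows about 3 fragments. At an assumed 4 counts each this is 0.020 to 0.024 FPKM in these libraries, a limit that covers counting error only. CCND2 was below the testing limit, and no difference between the groups was detectable at this depth.

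The kinases that pair with the D cyclins were both expressed. CDK4 (ENSG00000135446, chromosome 12, 57747727 to 57756013, minus strand) was the most abundant of the 10 genes per unit length, with 53.3, 50.9 and 51.7 FPKM in the GIA libraries, against 52.2, 52.5 and 53.1 FPKM in the DMSO libraries. These values overlapped and spanned only a narrow range. For CDK4 the fold change in log2 was -0.02 (SE 0.03, 95% interval -0.10 to 0.06, adjusted p = 0.931 by edgeR), and it was -0.0001 without GIA library 2.

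CDK6 (ENSG00000105810, chromosome 7, 92604921 to 92836573, minus strand), the paralogue of CDK4, had 16.9, 15.2 and 16.4 FPKM in the GIA libraries, against 17.5, 17.2 and 16.9 FPKM in the DMSO libraries. GIA library 1 lay just above DMSO library 3, and the other GIA libraries lay below every DMSO library. Means were 16.1 ± 0.885 FPKM with GIA and 17.2 ± 0.302 FPKM with DMSO (SD, n = 3 each). The fold change in log2 was -0.09 (SE 0.05, 95% interval -0.20 to 0.01, adjusted p = 0.874 by edgeR), and -0.05 without GIA library 2. Its sign was negative in each of the 6 fits that left out a library, from -0.13 to -0.05.

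**Figure D2:**
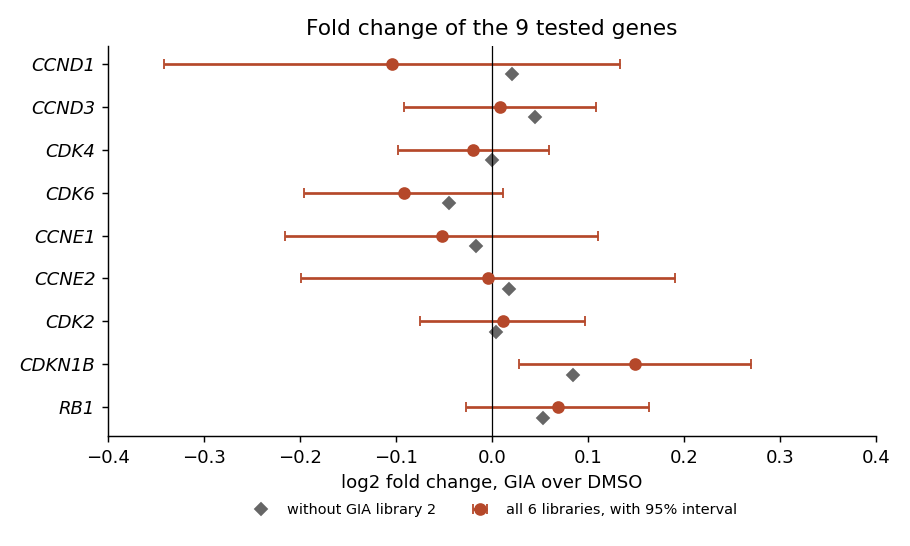
Log2 fold change (x axis, GIA over DMSO) of the 9 tested genes with all 6 libraries (circles, with the 95% interval) and without GIA library 2 (diamonds). The interval of CDKN1B alone lies above 0, before adjustment, and CCND1 has the widest interval and changes sign without GIA library 2.

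E-type cyclins were at lower levels per unit length than CCND1 and CCND3. CCNE1, which encodes cyclin E1 (ENSG00000105173, chromosome 19, 29811991 to 29824312, plus strand), had 9.37, 8.60 and 8.99 FPKM in the GIA libraries, against 9.80, 9.40 and 8.72 FPKM in the DMSO libraries. The groups overlapped, and CCNE1 differed by -0.05 in log2 (SE 0.07, 95% interval -0.22 to 0.11, adjusted p = 0.914 by edgeR). It lay between -0.10 and -0.01 when each library in turn was left out.

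CCNE2, which encodes cyclin E2 (ENSG00000175305, chromosome 8, 94879770 to 94896678, minus strand), had 6.01, 6.02 and 6.46 FPKM in the GIA libraries, against 5.47, 6.88 and 6.16 FPKM in the DMSO libraries. The highest and the lowest value were both DMSO libraries, with a coefficient of variation of 4.13% among GIA libraries and 11.4% among DMSO libraries. CCNE2 differed by -0.0044 in log2 (SE 0.09, 95% interval -0.20 to 0.19, adjusted p = 0.995 by edgeR), and its sign turned under several settings, from -0.08 without DMSO library 1 to 0.08 without DMSO library 2.

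CDK2, the kinase partner of the E cyclins (ENSG00000123374, chromosome 12, 55966781 to 55972789, plus strand), had 33.7, 35.1 and 34.9 FPKM in the GIA libraries, against 33.6, 35.5 and 33.6 FPKM in the DMSO libraries. The GIA values lay within the span of the DMSO values. For CDK2 the fold change in log2 was 0.01 (SE 0.04, 95% interval -0.07 to 0.10, adjusted p = 0.969 by edgeR), which bounds a rise at 1.07-fold and a fall at 1.05-fold.

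CDKN1B, which encodes the inhibitor p27 (ENSG00000111276, chromosome 12, 12715058 to 12722369, plus strand), was the gene of the 9 whose groups were separated. Its bases from 250 before to 50 after the RefSeq start (GRCh38.p14, chr12:12717118-12717417, plus strand) are shown because the results turn on this gene most. Capitals mark matches, on either strand, to the CCAAT box (CCAAT), the GC box (GGGCGG) and the core of the hypoxia response element (ACGTG or GCGTG).
CDKN1B: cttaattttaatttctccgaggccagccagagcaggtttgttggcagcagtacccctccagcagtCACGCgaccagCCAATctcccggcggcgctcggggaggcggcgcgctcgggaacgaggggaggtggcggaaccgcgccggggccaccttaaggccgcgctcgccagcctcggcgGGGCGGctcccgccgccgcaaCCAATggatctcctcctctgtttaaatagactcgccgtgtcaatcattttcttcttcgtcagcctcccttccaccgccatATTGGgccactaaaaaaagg
The window held 3 CCAAT matches, 1 GC box match and 1 hypoxia core match, with no overlap among them. Of all 35116 RefSeq windows of this length, 34.6% held at least 1 CCAAT match. For the GC box this share was 45.0% and for the hypoxia core 48.4%. At least 1 match of each kind is thus common, and the share of windows with 3 CCAAT matches was not counted. A match is only a description of the letters.

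The CDKN1B transcript had 29.7, 34.3 and 30.0 FPKM in the GIA libraries, against 28.0, 28.4 and 28.2 FPKM in the DMSO libraries. Every GIA library lay above every DMSO library, with GIA library 2 highest by several FPKM and the other GIA libraries closer to the DMSO group. Separation upward of this kind was found for 5.63% of all tested genes, downward for 5.6% and in either direction for 11.2%, and for 1 of the 9 G1 genes, a share near that background. Means were 31.3 ± 2.54 FPKM with GIA and 28.2 ± 0.203 FPKM with DMSO (SD, n = 3 each). The log2 fold change was 0.15, or 1.11-fold (SE 0.05, 95% interval 0.03 to 0.27), and it did not pass adjustment over all genes (adjusted p = 0.874 by edgeR). It was 0.08 without GIA library 2, and 0.14 to 0.18 in each of the other fits that left out 1 library. A lncRNA model on the same strand, listed as AC008115, shares 549 bases with CDKN1B in the table and had 1.16 to 1.98 FPKM, so some reads may have been split between them.

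RB1, which encodes the retinoblastoma protein (ENSG00000139687, chromosome 13, 48303744 to 48599436, plus strand), had 11.8, 11.9 and 11.1 FPKM in the GIA libraries, against 11.4, 11.0 and 10.7 FPKM in the DMSO libraries. GIA library 3 lay below DMSO library 1, so the groups overlapped. Means were 11.6 ± 0.431 FPKM with GIA and 11.0 ± 0.325 FPKM with DMSO (SD, n = 3 each). The fold change of RB1 in log2 was 0.07 (SE 0.04, 95% interval -0.03 to 0.16, adjusted p = 0.874 by edgeR), positive in each of the 6 fits that left out a library, from 0.05 to 0.10.

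How large a change these 9 transcripts could hide is limited by the intervals. All 9 of the 95% intervals stayed inside 1.5-fold in both directions, as did 83.0% of those of the genes tested. A fall of CCND1 is bounded at 1.27-fold, and the highest upper bound of the set was 1.21-fold, for CDKN1B. Each interval was taken gene by gene, with no adjustment for how many there were.

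GIA library 2 was the highest or the lowest library for 7 of the 9 genes, 5 times the lowest and 2 times the highest, where over all tested genes this share was 53.5%. Its lowest values were those of CCND1, CCND3, CDK4, CDK6 and CCNE1, which lay 0.33, 0.07, 0.05, 0.14 and 0.10 below the mean of the 6 libraries on the log2 CPM scale (log2 of counts scaled to library size). Its highest values were those of CDKN1B and RB1, 0.20 and 0.06 above that mean. The same GIA library thus had the lowest cyclin D1 and the highest p27 transcript level, while GIA library 1 had the highest cyclin D1 level of all 6, 0.16 above the mean.

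**Figure D3:**
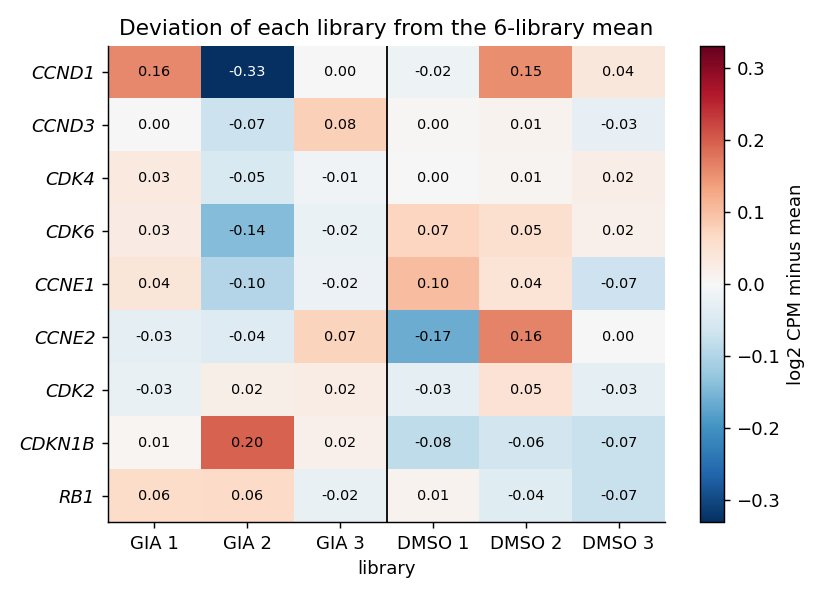
Deviation of each library (columns) from the 6-library mean of log2 CPM for the 9 tested genes (rows), with red above and blue below the mean. GIA library 2 holds the lowest value of 5 genes and the highest of 2, led by -0.33 for CCND1 and 0.20 for CDKN1B.

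Levels per unit length differed widely between the genes. Over the 6 libraries CDK4 averaged 52.3 FPKM, CCND1 43.6, CDK2 34.4, CDKN1B 29.8, CCND3 19.2, CDK6 16.7, RB1 11.3, CCNE1 9.15, CCNE2 6.17 and CCND2 0.0011. The ranges of neighbours overlapped between CCND1 and CDK2 and between CDK2 and CDKN1B, and no other neighbours' ranges overlapped. CDK2 lay above CDKN1B in 6 of 6 libraries and CCND1 above CDK2 in 5 of 6, the exception being GIA library 2. Counts alone give another order: CDK6 averaged 13976 estimated counts, second only to CCND1, and CDK4 11116, although CDK4 was higher per unit length.

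Related genes were also compared by their ratio within each library. CCND1 made up 71.6%, 65.3% and 68.1% of the summed FPKM of the D cyclins in GIA libraries 1 to 3, against 69.0%, 71.4% and 70.3% in DMSO libraries 1 to 3. The summed D cyclin level was 67.4, 53.1 and 63.4 FPKM with GIA, against 62.0, 67.4 and 63.4 FPKM with DMSO, so it was lowest in GIA library 2 and otherwise similar in range. The log2 ratio of CCND1 to CCND3 differed by -0.12 between GIA and DMSO (exact two-sided permutation test, p = 0.5; 0.667 adjusted over 4 ratios), by -0.02 without GIA library 2 and by -0.23 without GIA library 1.

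CDK4 was 3.15, 3.35 and 3.16 times CDK6 in the GIA libraries, against 2.99, 3.05 and 3.15 times in the DMSO libraries. GIA library 1 and DMSO library 3 were almost equal, and the groups just failed to overlap. The log2 ratio averaged 1.69 ± 0.05 with GIA and 1.61 ± 0.04 with DMSO (SD, n = 3 each), a difference of 0.07 (exact two-sided permutation test, p = 0.1, adjusted 0.2), and of 0.05 without GIA library 2. With 3 libraries against 3, 0.1 is the smallest p this test can give.

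CDKN1B was 0.882, 0.976 and 0.859 times CDK2 in the GIA libraries, against 0.833, 0.800 and 0.839 times in the DMSO libraries. Every GIA ratio lay above every DMSO ratio, and the ratio was highest in GIA library 2. The log2 fold change of CDK2 was only 0.01, so this ratio mostly repeats the CDKN1B values and is not a separate result. The difference in the log2 ratio was 0.13 (exact two-sided permutation test, p = 0.1, adjusted 0.2), and 0.08 without GIA library 2. The ratio of CCNE1 to CCNE2 was 1.56, 1.43 and 1.39 with GIA, against 1.79, 1.37 and 1.41 with DMSO. Its log2 difference of -0.05 (exact two-sided permutation test, p = 0.9, adjusted 0.9) turned to 0.07 without DMSO library 1. CCND1 to CCND2 gave no ratio, because CCND2 was at 0 in 5 libraries.

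**Figure D4:**
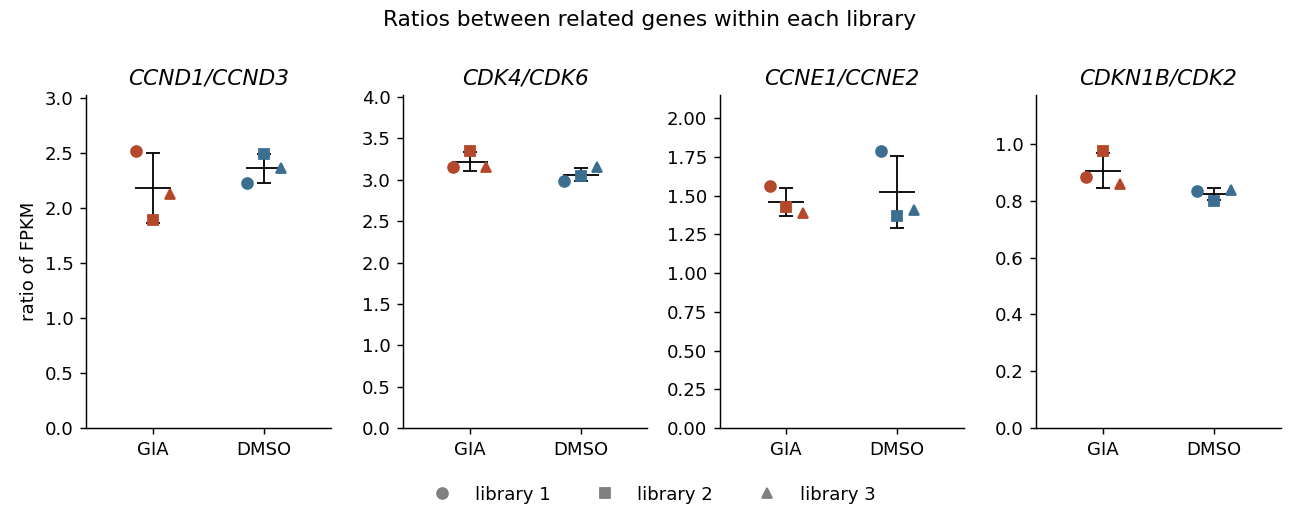
FPKM ratio (y axis, from 0) of 4 gene pairs within each GIA and DMSO library; symbols give the library number and black bars the mean and SD (n = 3 each). The ratios of CDK4 to CDK6 and of CDKN1B to CDK2 do not overlap between the groups, with a very small margin for CDK4 to CDK6, and the other pairs overlap.

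The wider G1 to S machinery was measured in 7 lists of 65 further genes, of which 63 passed the expression filter. None of the 63 was called by edgeR, with a smallest adjusted p of 0.874, where the background was 0% of all genes. At an unadjusted p under 0.05 there was 1 of the 63 (WEE1), or 1.59%, against 4.63% of all genes, and the groups did not overlap for 7, or 11.1%, against 11.2% of all genes. The fold change was positive for 22 and negative for 41, with a median of -0.02 on the log2 scale. The direction of so small a median is not a call, and some of these genes stand in more than 1 list.

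None of the 6 other CDK inhibitors was called: 3 were positive and 3 negative, with a median log2 fold change of -0.0035. CDKN2A, which encodes p16 and ARF, had 54.7, 53.1 and 52.3 FPKM with GIA, against 54.6, 53.1 and 55.1 FPKM with DMSO. CDKN1A, which encodes p21, had 27.8, 29.7 and 28.8 FPKM with GIA, against 29.3, 28.1 and 27.7 FPKM with DMSO. The log2 fold changes were -0.03 (SE 0.03) for CDKN2A and 0.02 (SE 0.04) for CDKN1A, and -0.10 (SE 0.05) for CDKN2B (p15) and 0.08 (SE 0.07) for CDKN2C (p18).

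Among the RB1 relatives RBL1 and RBL2, the E2F factors and their DP partners, 5 of 12 were positive and 7 negative. Their median was -0.0073, and 0 were called. E2F2 alone, named after its values were seen, had groups that did not overlap (0.09, SE 0.05). That is 1 of 12 genes, where the share over all tested genes was 11.2%. TFDP1, a DP partner, had the highest level, with 65.1, 62.3 and 63.2 FPKM with GIA, against 66.4, 62.9 and 64.1 FPKM with DMSO. Its log2 fold change was -0.02 (SE 0.04), and those of the factors E2F1, E2F3 and E2F4 were -0.02 (SE 0.07), -0.05 (SE 0.04) and -0.0021 (SE 0.05). Of the 5 MuvB core genes, which repress cell cycle genes together with RBL1 or RBL2, 1 was positive and 4 negative, with a median of -0.03 and 0 called. Their examples were RBBP4 at -0.02 (SE 0.05), LIN9 at -0.08 (SE 0.07), LIN54 at -0.04 (SE 0.08) and LIN52 at -0.03 (SE 0.12).

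Genes that E2F activates, which are held back while RB1 binds E2F, gave no call. Of 16 tested, 3 were positive and 13 negative, with a median of -0.02, and 2 of the 16 had groups that did not overlap, near the share of 11.2% over all genes. Both were lower with GIA: the helicase subunits MCM3 and MCM5, the second named after its values were seen. RRM1, a subunit of ribonucleotide reductase, had 331, 327 and 325 FPKM with GIA, against 328, 328 and 330 FPKM with DMSO. PCNA, the sliding clamp of DNA polymerase, had a log2 fold change of -0.02 (SE 0.04), the helicase subunit MCM3 -0.03 (SE 0.03) and the transcription factor MYBL2 -0.0023 (SE 0.04). The median of the list lay 0.04 below the 6-library mean in GIA library 2 and within 0.02 of it in every other library. The later cyclins and kinases had 3 positive and 1 negative of 4 tested, a median of 0.02 and 0 called, with CDK1, the mitotic kinase, at 0.03 (SE 0.04), CCNA2 at 0.02 (SE 0.03), CCNB1 at -0.02 (SE 0.04) and CCNB2 at 0.06 (SE 0.04). CCNA1 and CDK3 fell below the filter.

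Regulators of kinase activity and of protein turnover were likewise uncalled. Of 8 genes that activate or restrain CDKs, 4 were positive and 4 negative, with a median of 0.01. For 4 of these 8 the groups did not overlap, 3 higher and 1 lower, where the share over all genes was 11.2%, and for the 7 lists together 11.1%. The higher ones were the phosphatases CDC25B (0.03, SE 0.03) and CDC25C (0.13, SE 0.08) and the inhibitory kinase WEE1 (0.13, SE 0.05), and the lower one was PKMYT1 (-0.07, SE 0.04), a kinase that inhibits CDK1; CDC25C and WEE1 were named after their values were seen. CDC25A, the phosphatase that activates cyclin E with CDK2, had 21.6, 18.5 and 20.7 FPKM with GIA, against 21.6, 21.8 and 21.0 FPKM with DMSO, a log2 fold change of -0.08 (SE 0.06), and CDK7, which activates CDKs, had -0.0010 (SE 0.07). GIA library 2 was the lowest for CDC25A also. Of 14 genes of cyclin and p27 turnover, 4 were positive and 10 negative, with a median of -0.01. SKP2, which marks p27 for degradation, had 32.6, 33.8 and 34.5 FPKM with GIA, against 34.2, 35.0 and 32.5 FPKM with DMSO, a log2 fold change of -0.01 (SE 0.04). Its cofactor CKS1B had -0.02 (SE 0.03), the related CKS2 -0.0094 (SE 0.05) and the scaffold CUL1 -0.0085 (SE 0.03).

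**Figure D5:**
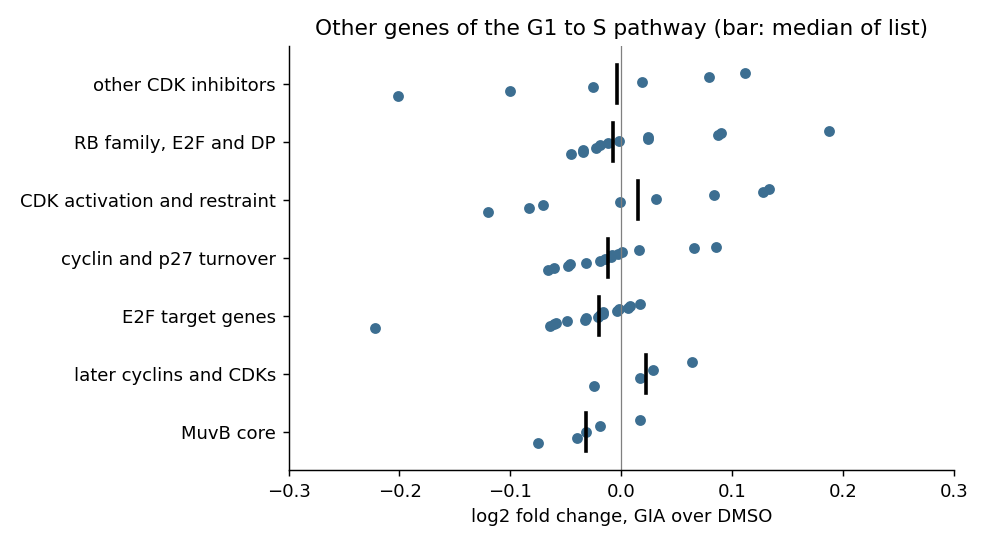
Log2 fold change (x axis, GIA over DMSO) of each tested gene in 7 lists of the G1 to S pathway; points are genes and black bars the list medians. The medians lie between -0.03 and 0.02, and no gene passed the test.

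Some of the 10 genes overlap models on the opposite strand. The libraries were strand-specific, per the labels, but whether the counting used strand is not stated. CCNE2 shares 1977 bases with INTS8, at 7.59 to 9 FPKM, above its own level. CDK4 shares 2485 bases with TSPAN31 (3.60 to 4.50 FPKM) and CCND1 shares 1399 bases with LTO1 (1.86 to 2.03 FPKM). The span of CDK2 lies within that of PMEL over 6009 bases (0.150 to 0.396 FPKM). RB1 shares 44298 bases with RCBTB2 (0.439 to 0.964 FPKM) and 55138 with LPAR6 (0 to 0.0105 FPKM). CDK6 shares 19178 bases with a lncRNA model listed as AC000065 (0 to 0.0317 FPKM). The share of reads given to each such model may be an estimate.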

How the data were processed

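Whole-culture RNA from 6 libraries of HCT116-labelled cells was analysed, 3 with GIA and 3 with DMSO. Per the submitters' processing notes, the tools were DESeq2 1.22.2, StringTie 2.1.6, HISAT2 2.2.1, FastQC 0.10.1 and cutadapt, on GRCh38 (hg38), with no role given for each. The annotation release was not given in the sources used here. Per the file headers, the table deposited by the authors holds an FPKM and a count for each gene and library. How the counts were made is not stated. The value 4 occurred 6798 times, while 3 occurred 4183 and 5 occurred 2499 times, so the deposited counts were treated as estimated counts. The values 1 and 2 occurred 6528 and 5410 times, so 4 counts to a fragment is an assumption that does not hold for every value. The counts were whole, and rounding changed nothing. Columns were matched to libraries by title.

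Genes with a mean of at least 0.5 FPKM were tested (13721) with edgeR 4.0.16 (R 4.3.3, glmQLFTest, the quasi-likelihood test), two-sided, with TMM scaling (factors 0.997 to 1.01), no covariate, and a Benjamini-Hochberg adjusted p under 0.05 as the threshold. The common biological coefficient of variation was 11.0%. Each standard error was the absolute fold change over the square root of F, with intervals by the t distribution. Ratios were tested by exact permutation. The script was tested on simulated data. Alternatives were DESeq2 1.42.0, limma 3.58.1 on log2 (FPKM + pseudocount), other scalings, other filters, counts divided by 4, a replicate block, and leaving out each library.

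The genes and lists were chosen with earlier results of these data known. Named genes were all 10 members and, from each list, the 4 genes of highest mean FPKM. The values of 1 list gene are not reported here.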

Additional observations from a re-analysis of the deposited data

How the results depend on the processing

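None of the 10 genes, and none of the 63 tested genes of the pathway lists, was called under any alternative that was run. Over all genes the count of calls was 0 under edgeR and also under DESeq2 (651 at an unadjusted p under 0.05, against 635 by edgeR), limma with each of 3 pseudocounts, the other scalings and filters, and counts divided by 4. It ranged from 0 to 5 when a library was left out: 1 and 5 on leaving out GIA libraries 1 and 3, and 2 each on leaving out DMSO libraries 2 and 3. With the replicate number as a block it was 3. At an unadjusted p under 0.05 by edgeR there were 1409 genes without GIA library 1, against 411 to 578 on leaving out any other library. The cause was not tested. Same-numbered libraries deviated together only weakly (r = 0.052, 0.033 and 0.097 across genes), so the numbers were not taken to pair the libraries; 5 of 6 libraries correlated best with their own number.

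Leaving out 1 library changed the sign of the log2 fold change for CCND1 (range -0.2177 to 0.0205), CCND3 (-0.0319 to 0.0445), CCNE2 (-0.0825 to 0.0814) and CDK2 (-0.0030 to 0.0387), and of the difference in the CCNE1 to CCNE2 ratio (-0.1254 to 0.0697). CCNE2 also turned to 0.0025, 0.0029 and 0.0020 by limma with a pseudocount of 0.5, 0.1 and 1, to 0.0049 with a mean of at least 5 FPKM, and to 0.0008 with the replicate block. CDK4, CDK6, CCNE1, CDKN1B and RB1 kept their sign in each fit. For CDK4 this has little meaning, since its log2 fold change was -0.0001 without GIA library 2. With the replicate block, the ratio differences were -0.12 for CCND1 to CCND3 and 0.07 for CDK4 to CDK6. They were -0.05 for CCNE1 to CCNE2 and 0.13 for CDKN1B to CDK2. These equal the values without the block by construction, so they cannot show whether the ratios depend on it. The exact two-sided permutation test within blocks gave p = 0.25 for CDK4 to CDK6 and for CDKN1B to CDK2. For CCND1 to CCND3 and for CCNE1 to CCNE2 the exact two-sided permutation test within blocks gave p = 0.75. Depth limits mainly CCND2, which has about 1 fragment in all.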

Other observations

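E2F8, a repressor of E2F targets, had 4.49, 3.54 and 3.99 FPKM with GIA, against 3.70, 3.17 and 3.67 FPKM with DMSO. Its log2 fold change, 0.19 (SE 0.11, adjusted p = 0.874 by edgeR), was the most positive of the 63 tested pathway genes. Changes of larger size in the negative direction also stood among the 63. WEE1, the kinase that restrains CDK1 and CDK2, had 5.92, 5.82 and 5.95 FPKM with GIA, against 5.30, 5.15 and 5.71 FPKM with DMSO. Every GIA library lay above every DMSO library (log2 fold change 0.13, SE 0.05, adjusted p = 0.874 by edgeR). Separation upward of this kind was found for 5.63% of all tested genes. E2F8 and WEE1 were chosen after their values were seen.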
